A study of Mus musculus with 6 samples.

Results

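The genes described here are the 9 of the interleukin-17 (IL-17) and interleukin-23 (IL-23) axis: the IL-17 ligands Il17a, Il17f and Il17c, the IL-17 receptor chains Il17ra, Il17rc and Il17re, the IL-23 subunits Il23a and Il12b, and the receptor chain Il23r. They were found by gene symbol in the authors' deposited table, where each had 1 row, so 9 of 17564 genes are covered. The RNA came from whole back skin of wild-type C57BL/6 mice aged 8 weeks, kept free of specific pathogens, and all mice had been shaved and depilated. In the 3 treated samples the skin then received SspA, the V8 serine protease of Staphylococcus aureus (3 µg), and an extract of house dust mite, HDM (10 µg). The application was repeated 3 days later, and skin was collected 7 days after the first. The 3 untreated samples received neither agent, and the labels give no collection day for them. Whether each sample is a mouse of its own is not stated in the labels. The p-values therefore reflect the spread among these 6 libraries, and that spread could be technical.

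In skin, IL-23 is a heterodimer of the p19 subunit (Il23a) and the p40 subunit (Il12b), made mainly by dendritic cells and macrophages. It acts through a receptor of Il23r and Il12rb1 on T cells and innate lymphoid cells of the type 17 kind, where it sustains production of IL-17A and IL-17F. These ligands bind receptors of IL-17RA and IL-17RC on keratinocytes and fibroblasts, which answer with neutrophil chemoattractants and antimicrobial proteins. IL-17C is made by epithelial cells themselves and signals through IL-17RA paired with IL-17RE. The comparison asked how the expression of these genes in skin differed after the protease and the mite extract.

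Values are scaled reads, the authors' read counts scaled so that each library sums to nearly the same total. The libraries, named U1 to U3 (untreated replicates 1 to 3) and T1 to T3 (treated replicates 1 to 3), held between 4928245 reads (U2) and 7545567 reads (T3), and 1 read was worth 0.84 to 1.29 scaled reads. Markers of keratinocytes (6 of 6 genes) and fibroblasts (5 of 5) had reads in the table, and their summed levels were 1275 to 1795 and 1367 to 2025 RPM (reads per 1000000 reads of the library) over the 6 libraries. The keratinocyte sum was highest in U2, the shallowest library, and lowest in T3, the deepest, and the part of depth in it was not tested. Across the 15534 genes tested with limma at adjusted p under 0.05, 9.26% were called higher and 7.23% lower in treated skin, and the median log2 fold change was 0.03. These counts, 1439 higher and 1123 lower, were 675 and 543 without U1, 751 and 644 without U2, 856 and 623 without T1, and 597 and 518 without T2.

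The ligand gene Il17f was higher in treated skin, and the IL-23 receptor gene Il23r was called higher in only 10 of 19 fits. The IL-17 receptor chains, which are far more abundant, showed no difference that passed the test. Of the 9 members, 5 had enough reads to be tested, and 2 of the 9 were called higher, namely Il17f and Il23r. None was called lower by limma, by edgeR or by DESeq2, and none of the members with a negative fold change had an unadjusted p under 0.05. Il17f and Il23r entered the test through their 3 treated libraries alone, since no untreated library reached the minimum of 1.76 RPM, so their count among the genes tested is no support of its own. Their treated libraries all lay above the untreated ones, as for 21.7% of tested genes, and no tested member lay wholly below, as 15.6% of tested genes did. The other 4 members, Il17a, Il17c, Il23a and Il12b, had too few reads for the test and are given as reads. Of these, Il17a was called higher in each of the 4 fits that held it.

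**Figure D1:**
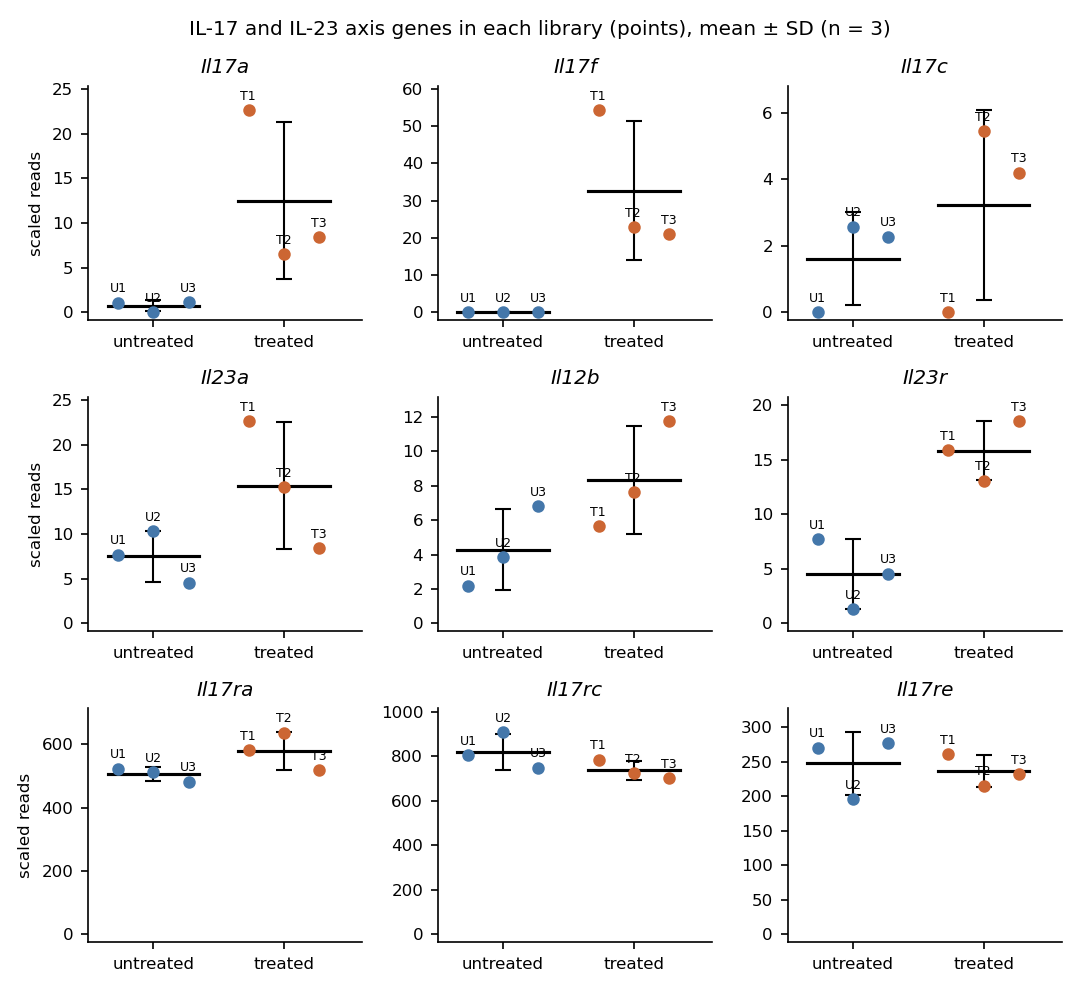
Scaled reads of the 9 members in each library (points, labelled U1 to U3 and T1 to T3), with the mean and SD of each group (n = 3). Il17f was at 0 in the 3 untreated libraries and at 21.0 to 54.3 in the treated ones, whereas the ranges of the groups overlapped for Il17ra, Il17rc and Il17re.

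Il17f encodes IL-17F, a cytokine of type 17 lymphocytes that signals as a homodimer or as a heterodimer with IL-17A. The gene lies on the minus strand of chromosome 1 at 20777146 to 20784270 (mm10). It had 0 reads in each of the 3 untreated libraries, and 48, 21 and 25 reads in T1, T2 and T3, which are 54.3, 22.9 and 21.0 scaled reads. T1 held more than both other treated libraries, and every treated library lay above every untreated one. None of the 16278718 reads of the untreated group fell on Il17f, a count that allows up to 3 reads, and against 3 reads over that group the 94 treated reads were at least 26.9-fold higher. By limma the log2 fold change was 4.94 ± 0.48 (SE, adjusted p = 0.00111), a size that depends on the added pseudocount because the untreated group is at 0. Il17f passed in each of the 19 fits made, with adjusted p from 2.91e-06 to 0.00878.

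Il17a encodes IL-17A, the founding member of the family, and lies on the plus strand of chromosome 1 at 20730905 to 20734496, 42649 bases from Il17f. U1 and U3 had 1 read each and U2 had 0, against 20, 6 and 10 reads in T1, T2 and T3. The scaled values were 1.10, 0 and 1.14 in untreated and 22.6, 6.53 and 8.40 in treated skin, so the groups did not overlap and T1 was again the highest. The ratio of treated to untreated reads, corrected for depth, was 15.4 (exact 95% interval 3.98 to 132, counting error only), and it was 9.74 without T1. Il17a was below the filter, and in the limma fit without a filter its log2 fold change was 2.85 with adjusted p = 0.0135. In that fit 8.70% of all genes were called higher. In the authors' deposited table, Il17a is higher in treated skin with a log2 fold change of 3.97 and adjusted p = 0.0251.

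In treated skin Il17f was the more abundant of the pair, while in untreated skin Il17a had 2 reads and Il17f had 0. Per transcript length, its level was 2.39, 3.48 and 2.49 times that of Il17a in T1, T2 and T3. The longest stretch that the GENCODE transcripts of the 2 genes share without a mismatch was 11 bases. That run, atcctggtcct, occupies bases 421 to 431 of Il17a and 444 to 454 of Il17f, and is shown because it limits how far reads of 1 gene could be taken for the other.

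Il17c had few reads in either group. This gene of an epithelial IL-17 ligand (chromosome 8, 122422020 to 122423639, plus strand) had 0, 2 and 2 reads in U1, U2 and U3 and 0, 5 and 5 in T1, T2 and T3. The groups overlapped, and the ratio of 10 to 4 reads was 2.14 (exact 95% interval 0.619 to 9.37, counting error only), so no difference was detectable at this depth. Without U1 the ratio was 1.38. The whole interval of Il17c is also covered on the same strand by the GENCODE gene Gm20388, and reads of these genes cannot be told apart.

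Il23r, the chain that gives the IL-23 receptor its specificity, had 7, 1 and 4 reads in U1, U2 and U3 and 14, 12 and 22 in T1, T2 and T3. It lies on the minus strand of chromosome 6 at 67422932 to 67491855. In scaled reads these were 7.69, 1.29 and 4.54 against 15.8, 13.1 and 18.5, so every treated library lay above every untreated one, with means of 4.51 ± 3.20 and 15.8 ± 2.71 (SD, n = 3). The log2 fold change was 1.80 ± 0.51 (SE, limma adjusted p = 0.0443). The ratio of 48 to 12 reads, corrected for depth, was 3.43 (exact 95% interval 1.80 to 7.10, counting error only). Il23r was not called in 9 of its 19 fits. Its adjusted p was 0.0887 without U2, 0.0714 without U3, 0.112 without T1, 0.0996 without T2, 0.0906 without T3, 0.126 in the 4 libraries of like depth (U1, U3, T1 and T2, log2 fold change 1.15), 0.128 with DESeq2, 0.0618 without a trend in the spread, and 0.131 in the authors' deposited table.

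The regions just before the start are shown for the 3 members whose treated libraries all lay above the untreated ones. The groups did not overlap in that direction for 21.0% of all 17564 genes in the table. Within the treated group the order differed, with Il17a and Il17f highest in T1 and Il23r in T3. Each sequence is the 250 bases before the transcript start, 5′ to 3′ on the gene's own strand, from RefSeq (GRCm38.p6), and capitals mark AGGTCA or its reverse complement, the letters of a half-site known to be bound by nuclear receptors.
Il17a (chr1:20730655-20730904, plus strand): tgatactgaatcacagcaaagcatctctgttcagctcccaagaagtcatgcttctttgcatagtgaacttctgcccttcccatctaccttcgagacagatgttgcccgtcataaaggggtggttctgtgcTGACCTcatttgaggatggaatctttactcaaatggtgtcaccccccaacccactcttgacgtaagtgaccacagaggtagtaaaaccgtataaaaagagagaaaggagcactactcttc
Il17f (chr1:20784271-20784520, minus strand): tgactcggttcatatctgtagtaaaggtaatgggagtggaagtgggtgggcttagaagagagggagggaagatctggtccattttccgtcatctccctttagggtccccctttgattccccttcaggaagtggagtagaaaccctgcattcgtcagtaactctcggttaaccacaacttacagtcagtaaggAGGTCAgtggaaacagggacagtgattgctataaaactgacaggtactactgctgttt
Il23r (chr6:67491856-67492105, minus strand): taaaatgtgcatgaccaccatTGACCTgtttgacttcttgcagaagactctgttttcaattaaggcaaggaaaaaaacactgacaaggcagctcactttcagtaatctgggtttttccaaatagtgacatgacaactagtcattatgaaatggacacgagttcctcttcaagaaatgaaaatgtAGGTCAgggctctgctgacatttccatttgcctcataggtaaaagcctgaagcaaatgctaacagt

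Of the 9 members, 7 had a promoter in the RefSeq table, and AGGTCA was found on either strand in 3 of the 7, namely Il17a, Il17f and Il23r. It occurs in 14.0% of the 32851 promoters of the same length. The match began 120 bases before the start in Il17a, 58 in Il17f, and 229 and 66 in Il23r. TATAAA, the core of the TATA box, was also found in 3 of the 7 (12.4% of all promoters), 31 bases before the start in Il17a, 29 in Il17f and 248 in Il17c. Il17a and Il17f therefore each carry both sets of letters, with TATAAA nearer the start. Neither TTCNNNGAA, the spaced palindrome bound by STAT factors (7.02% of promoters), nor a form of the NF-κB site (GGGA, any base, then TTTCC, in 0.356%), was found in any of the 7. The matches do not overlap each other. The motifs were searched on both strands with the expression values known, and a match is a description of letters, not evidence of binding.

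**Figure D2:**
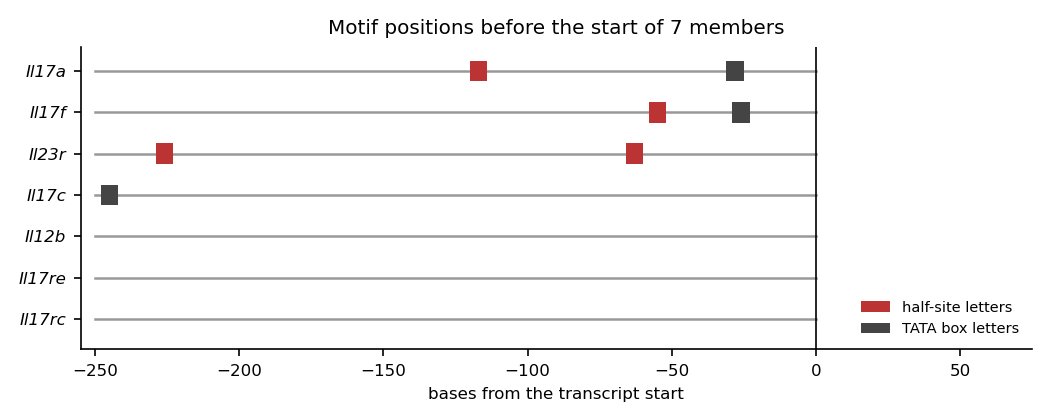
Positions of the nuclear receptor half-site letters (red) and the TATA box letters (black) in the 250 bases before the transcript start of the 7 members with a RefSeq promoter, on the scale of bases from the start (0). The half-site letters are found in Il17a, Il17f and Il23r, and the other 4 members show none in this window.

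The IL-23 subunits had higher means in treated skin, but the groups overlapped and neither passed a test. Il23a, which encodes the p19 subunit that sets IL-23 apart from IL-12 (chromosome 10, 128296140 to 128298084, minus strand), had 7, 8 and 4 reads in U1, U2 and U3 and 20, 14 and 10 in T1, T2 and T3. In scaled reads T1 (22.6) and T2 (15.3) lay above the untreated range of 4.54 to 10.3, while T3 (8.40) fell inside it. The ratio of 44 to 19 reads was 1.99 (exact 95% interval 1.14 to 3.60, counting error only). With the spread between samples taken into account the difference did not pass, with limma adjusted p = 0.212 without a filter and an adjusted p of 0.206 to 0.448 over the 4 fits that held the gene.

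Il12b, the p40 subunit shared by IL-12 and IL-23 (chromosome 11, 44400063 to 44414677, plus strand), had 2, 3 and 6 reads in U1, U2 and U3 and 5, 7 and 14 in T1, T2 and T3. T1 (5.65 scaled reads) lay below U3 (6.82), so the groups overlapped. The ratio of 26 to 11 reads was 2.03 (exact 95% interval 0.968 to 4.55, counting error only), and the limma adjusted p without a filter was 0.26. Both subunits thus had about 2-fold ratios with overlapping groups, and their treated libraries ran in opposite order, with Il23a highest and Il12b lowest in T1. Il12a, the p35 subunit that pairs with p40 to make IL-12, had a log2 fold change of 0.20 ± 0.36 (SE, limma adjusted p = 0.756).

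The IL-17 receptor chains carried most of the reads of the axis and differed little between the groups. Il17ra, the chain common to receptors of several IL-17 ligands (chromosome 6, 120463197 to 120483727, plus strand), stood at 523 (U1), 513 (U2) and 483 (U3) scaled reads in untreated skin and at 582, 637 and 518 in T1, T2 and T3. T3 lay below U1, so the groups overlapped, and the log2 fold change was 0.19 ± 0.09 (SE, limma adjusted p = 0.206). Without T3 it was 0.27 with adjusted p = 0.0714, the lowest of its 19 fits.

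Il17rc, the partner of IL-17RA in the receptor for IL-17A and IL-17F (chromosome 6, 113471455 to 113483163, plus strand), stood at 803 (U1), 907 (U2) and 749 (U3) scaled reads in untreated skin and at 784, 722 and 702 in T1, T2 and T3. The log2 fold change was -0.15 ± 0.09 (SE, limma adjusted p = 0.287). U2, the shallowest library, was the highest and T3, the deepest, the lowest, and Il17rc had 0.281 to 0.355 reads per base of transcript. In the 4 libraries of like depth the log2 fold change was -0.04 (limma adjusted p = 0.773).

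Il17re, the partner of IL-17RA in the receptor for IL-17C, lies 696 bases upstream of Il17rc on the same strand (chromosome 6, 113458771 to 113470758). It stood at 270 (U1), 196 (U2) and 277 (U3) scaled reads in untreated skin and at 261, 216 and 232 in T1, T2 and T3. The treated values all lay within the untreated range, and the log2 fold change was -0.06 ± 0.15 (SE, limma adjusted p = 0.846), which turned to 0.02 without U1, 0.03 without U3 and 0.01 without T2.

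Compared per transcript length, as RPM per kilobase, the order of the 3 receptor chains was the same in both groups. In untreated skin Il17rc stood at 55.0 ± 5.40, Il17ra at 20.2 ± 0.836 and Il17re at 14.5 ± 2.65 (SD, n = 3), with no overlap between neighbours. Treated skin had 49.4 ± 2.87, 23.1 ± 2.37 and 13.8 ± 1.35. Within each library the level of Il17rc was 2.59, 2.97 and 2.61 times that of Il17ra in U1, U2 and U3 and 2.27, 1.91 and 2.28 times in T1, T2 and T3. These ratios did not overlap between the groups (2-sided exact permutation p = 0.1, n = 3 a group, the smallest that 3 against 3 samples can give), and the ratio was singled out after the values were seen. Neither gene passed the test on its own, so no change of the pair is shown.

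**Figure D3:**
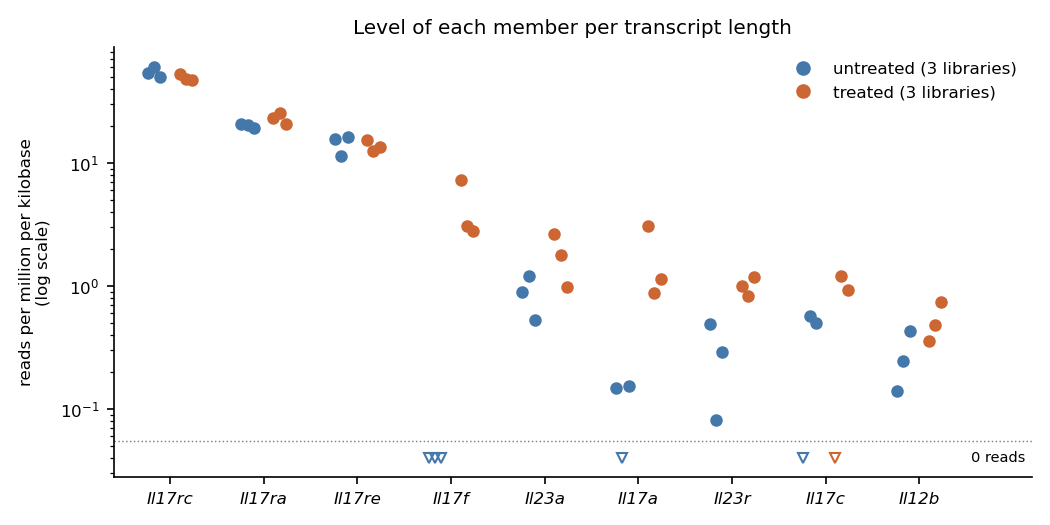
Level of each member per transcript length (RPM per kilobase, log scale) in the 3 untreated (blue) and 3 treated (orange) libraries, with libraries at 0 reads drawn as open triangles below the dotted line. Il17f moves from 0 reads in untreated skin to the fourth place in treated skin, below Il17rc, Il17ra and Il17re.

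The order of the low members changed with treatment. In untreated skin Il23a (0.875 ± 0.336 RPM per kilobase) came next after the receptor chains, followed by Il17c (0.356 ± 0.31), Il23r (0.287 ± 0.204), Il12b (0.271 ± 0.148), Il17a (0.101 ± 0.0873) and Il17f at 0. The ranges of each neighbouring pair from Il23a downwards overlapped. In treated skin Il17f (4.40 ± 2.51) stood above Il23a (1.80 ± 0.829) with no overlap, followed by Il17a (1.69 ± 1.19), Il23r (1.01 ± 0.173), Il17c (0.709 ± 0.629) and Il12b (0.528 ± 0.197), where each neighbouring pair overlapped. Il17f thus went from the lowest place of the 9 to the place just under the receptor chains.

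By Pearson correlation of log2(scaled reads + 1) over the 6 libraries, the genes most like Il17f were Areg (r = 0.9987), which encodes the growth factor amphiregulin, Tgm3 (r = 0.9973), a transglutaminase of the hair follicle and cornified layer, and Serpinb3d (r = 0.9971), a serine protease inhibitor whose reads are uncertain because of near-identical paralogs. The 6 points fall into the 2 groups, which alone give a high r to a gene that differs between them, and 52 genes were over 0.98 for Il17f. For Il17ra they were Cmip (r = 0.9934), Ehd4 (r = 0.9907) and Ecscr (r = 0.9899), and for Il17rc they were Rnf11 (r = 0.9958), Map2k2 (r = 0.9951) and Atp5g1 (r = 0.993). None of these 6 genes was called between the groups (limma adjusted p from 0.201 to 0.428), although the same libraries and depths underlie each pair.

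Around the IL-23 receptor, the shared chain rose and the IL-12 specific chain fell. Of 7 tested partner subunits and JAK-STAT parts, 2 rose and 1 fell, against 9.26% and 7.23% of all genes tested. The median log2 fold change was 0.12. Il12rb1, which pairs with Il23r for IL-23 and with Il12rb2 for IL-12, had 8, 6 and 14 reads in U1, U2 and U3 and 31, 47 and 51 in T1, T2 and T3, a log2 fold change of 1.95 ± 0.33 (SE, limma adjusted p = 0.00785). Stat4, a transcription factor activated by IL-12 and IL-23, rose by 1.34 ± 0.28 on the log2 scale (adjusted p = 0.0154), but limma gave 0.0556 without U1, 0.058 without T1 and 0.0691 without T2. Neither Il12rb1 nor Stat4 reached the minimum of 1.76 RPM in every untreated library. Both entered the test through their treated libraries, so the count of 2 that rose is no support of its own. Il12rb2 fell from 240 ± 94.9 to 70.4 ± 32.6 scaled reads (SD, n = 3), a log2 fold change of -1.77 ± 0.36 (limma adjusted p = 0.0144, and 0.0549 without U1). Jak2, Tyk2 and Stat3, the kinases and the factor that carry the IL-23 signal, had log2 fold changes of 0.12, 0.05 and 0.08 and did not pass (limma adjusted p = 0.424, 0.798 and 0.612).

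Among the other ligands and receptors of the IL-17 family, none of the 3 tested genes was called by limma, edgeR or DESeq2, and 1 had an unadjusted p under 0.05. That gene, Il17rb, part of the receptor for IL-25, had means of 46.0 ± 14.2 and 83.0 ± 8.43 scaled reads with no overlap of the groups (log2 fold change 0.88, limma adjusted p = 0.0504, and 0.0405 with the replicate block). Il17d (-0.27, adjusted p = 0.683) and Il17rd (0.03, adjusted p = 0.927) did not pass.

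Most genes that carry the signal inside the responding cell did not pass the test. Of 19 tested genes of IL-17 receptor signalling and feedback, 1 rose and 1 fell, against 9.26% and 7.23% of all genes tested. The median log2 fold change was 0.03, the same as over all genes. Zc3h12a, whose product Regnase-1 degrades inflammatory mRNAs and restrains IL-17 signalling, rose from 543 ± 56.7 to 823 ± 53.7 scaled reads (SD, n = 3), a log2 fold change of 0.60 ± 0.10 (SE, limma adjusted p = 0.00631). Traf5 fell by 0.61 on the log2 scale (limma adjusted p = 0.0381), but not without U1, U2, U3, T1 or T2 singly (adjusted p 0.0512 to 0.132), nor with the replicate block (0.0619). Traf3ip2, which encodes the adaptor Act1 at the receptor, stood at 0.07 (adjusted p = 0.593). Traf6 (0.28, adjusted p = 0.0652), Traf3 (0.23, adjusted p = 0.126) and Nfkbiz (0.20, adjusted p = 0.127), which encodes the IL-17 induced co-activator IκBζ, did not pass.

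**Figure D4:**
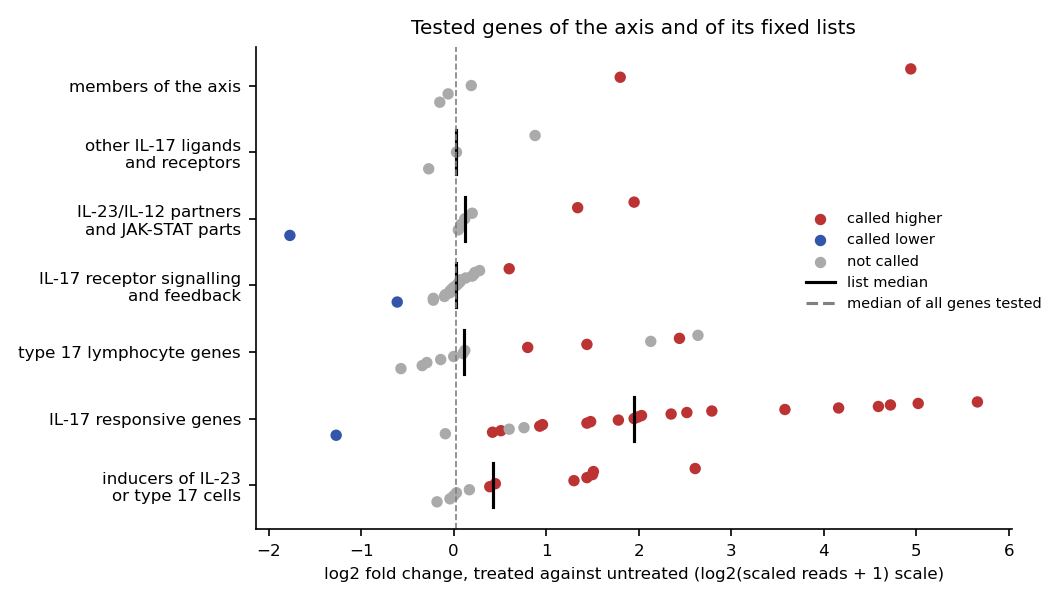
Log2 fold change (treated against untreated, on the log2(scaled reads + 1) scale) of each tested gene of the axis and of 6 lists of related genes, coloured by call, with the median of each list (black bar) and of all genes tested (dashed line, 0.03). The IL-17 responsive list has the highest median (1.95), and the signalling and feedback list sits on the median of all genes (0.03).

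In the list of type 17 lymphocyte genes, 3 of 12 tested members rose, against 9.26% of all genes tested, and the median log2 fold change was 0.11. These were Batf (1.44, limma adjusted p = 0.0112), a transcription factor of the Th17 programme, Cd163l1 (2.44, adjusted p = 0.0203), a scavenger receptor of γδ T cells, and Sox13 (0.80, adjusted p = 0.018), a factor of IL-17 producing γδ T cells. Only 1 rose without U1, without U2 and in the 4 libraries of like depth, and 5 rose without U3. None was called lower over the 6 libraries by limma or edgeR and 1 was by DESeq2, while limma called 2 lower in the 4 libraries of like depth, 1 without T3 and 1 with the replicate block. Of the tested genes, 3 had a negative fold change at unadjusted p under 0.05. Ccr6 (2.64, limma adjusted p = 0.0736) and Blk (2.13, adjusted p = 0.0707) did not pass, and with the replicate block they did (0.0221 and 0.0144), giving 5 genes that rose and 1 that fell. Both also passed with DESeq2 (adjusted p = 0.0237 and 0.0267) and in the authors' deposited comparison (0.0218 and 0.0245). With edgeR neither passed (0.0577 and 0.105).

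Il22, a type 17 cytokine that acts on epithelium, was also without reads in untreated skin. It had 0 reads in each untreated library and 4, 5 and 11 in T1, T2 and T3, at least 5.72-fold higher than 3 reads over the untreated group. Il22 was below the filter, and in the limma fit without one its adjusted p was 0.00842. Csf2 had 0, 3 and 3 reads in U1, U2 and U3 and 2, 2 and 8 in T1, T2 and T3, with overlapping groups. The 3 T cell receptor genes of the list, Trdc, Tcrg-C1 and Trdv4, and Il21 were not analysed here.

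Of 12 tested genes for signals that induce IL-23 or type 17 cells, 7 rose, against 9.26% of all genes, and none was called lower by limma, edgeR or DESeq2, nor had a negative fold change at unadjusted p under 0.05. The median log2 fold change was 0.42. Tlr2, a receptor for bacterial lipoproteins, rose from 93.0 ± 15.9 to 270 ± 72.5 scaled reads (log2 fold change 1.51, limma adjusted p = 0.0051). Clec6a (listed as Clec4n), which encodes Dectin-2, rose by 1.30 on the log2 scale (adjusted p = 0.00564) and Clec7a, which encodes Dectin-1, by 1.44 (adjusted p = 0.0174). Il1b, which helps to induce IL-17 producing cells, rose by 2.61 (adjusted p = 0.00789), from 49, 44 and 52 reads in U1, U2 and U3 to 668, 324 and 191 in T1, T2 and T3. Il1a, Card9, Malt1, Irf5 and Ptges2 did not pass, with log2 fold changes from -0.18 (Ptges2) to 0.17 (Card9). The count of 7 fell to 3 without U1, 4 without U2 and 4 without T2.

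Of the IL-17 responsive epidermal and stromal genes, 19 of 23 tested members rose and 1 fell, against 9.26% and 7.23% of all genes tested, with a median log2 fold change of 1.95. Among those that rose, Il19, Defb4, Cxcl2 and Il6 had no untreated library at the minimum of 1.76 RPM. S100a7a, Defb3, Cxcl5, Saa1 and Mmp13 reached it in some untreated libraries but not in all. All of these genes entered the test through their treated libraries, so the count is no support of its own. The list was also written with earlier results of these data known. Il19, an IL-20 family cytokine of keratinocytes (4.59, limma adjusted p = 3.91e-04), Saa3, an acute-phase protein (2.35, adjusted p = 0.00248), Mmp13, a collagenase (4.16, adjusted p = 0.00382), and Defb4, a β-defensin (5.02, adjusted p = 0.00404), had the smallest p. Defb4 and Saa3 have close paralogs, so their reads are uncertain. The 1 gene that fell was Ccl20, the ligand of the type 17 cell receptor CCR6, with 71, 94 and 117 reads in U1, U2 and U3 against 30, 30 and 92 in T1, T2 and T3. Its log2 fold change was -1.27 (limma adjusted p = 0.039), but it was not called by edgeR (0.0504) or without U1, U2, U3, T1 or T2 singly (adjusted p 0.0528 to 0.125).

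Cxcl3 and Csf3, named after their values were seen, were below the filter because T3 held few of their reads. Cxcl3, a neutrophil chemoattractant, had 0 reads in each untreated library and 168, 35 and 8 in T1, T2 and T3. Csf3, the granulocyte growth factor, had 1, 0 and 0 reads in U1, U2 and U3 and 38, 29 and 4 in T1, T2 and T3. The summed level of the responsive list was 395 to 455 RPM in untreated skin and 1222, 1005 and 698 in T1, T2 and T3, so that T3 was the lowest treated library. Among the low members of the axis, T3 was also the lowest for Il17f and Il23a. It was not for Il17a and Il23r, lowest in T2, nor for Il17c and Il12b, lowest in T1.

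Markers of several cell types moved with these genes, and in bulk skin a change in the number of cells of a type and a change in RNA per cell cannot be told apart. Of all genes tested, 9.26% were called higher and 7.23% lower, the shares to set beside the marker counts. Of 7 T cell markers with a row, 4 rose (Cd4, Cd8a, Cd28 and Icos), none was at 0, and their summed level was 41.6 to 64.0 RPM in untreated and 104 to 130 in treated skin. Cd8a had no untreated library at 1.76 RPM and entered the test through its treated libraries alone. Cd3e (-0.49, limma adjusted p = 0.103) and Cd3g (-0.22, adjusted p = 0.404), parts of the T cell receptor complex, did not pass, and nor did Cd3d of the same complex, which had the opposite sign (0.92, adjusted p = 0.0747). Of the 3 γδ T cell markers with a row, which are also in the type 17 list, 2 rose (none in the 4 libraries of like depth) and none was at 0, with 38.6 to 69.0 and 77.6 to 134 RPM. Among innate lymphoid and NK markers, 1 of 4 tested rose (Il7r) and 1 fell (Gata3), with sums of 289 to 299 and 240 to 254.

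Dendritic cells and macrophages, the cells known to make IL-23, were followed through their markers. None of 9 dendritic and Langerhans cell markers rose by limma, edgeR or DESeq2 or at unadjusted p under 0.05, and 1 fell, the Langerhans cell gene Cd207 (-1.39, limma adjusted p = 0.00439). Epcam also had a negative fold change at unadjusted p under 0.05 (-0.21, limma adjusted p = 0.137). In the 4 libraries of like depth limma called 2 lower. The summed level of these 9 markers was 247 to 292 RPM in untreated and 221 to 249 in treated skin. Of 7 monocyte and macrophage markers 3 rose, against 9.26% of all genes tested, with sums of 450 to 608 and 667 to 897. All 7 tested neutrophil markers rose, with sums of 57.6 to 87.3 and 196 to 549, and 2 of them, S100a8 and S100a9, are also in the IL-17 responsive list. Growing hair follicle markers rose in 4 of 6 tested genes, with sums of 19.1 to 25.8 and 63.6 to 402, and 2 of 6 keratinocyte markers fell (Krt15 and Lor). The neutrophil markers Retnlg, Mmp8 and Trem1 and the follicle markers Krt25 and Krt35 had no untreated library at 1.76 RPM. The follicle marker Krt27 and the monocyte marker Ly6c2 did not reach it in every untreated library. All of these markers entered the test through their treated libraries, so the counts of their lists are no support of their own. The part of these cell types in the values of the axis genes was not tested.

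**Figure D5:**
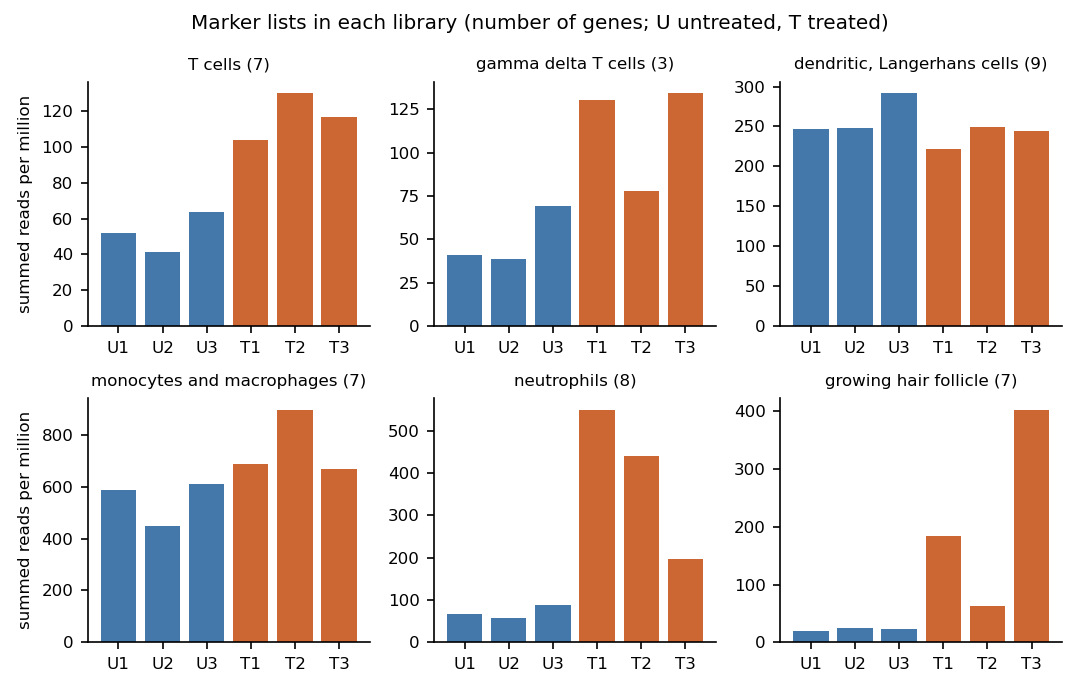
Summed RPM of 6 marker lists in each library (bars from 0, blue untreated and orange treated, with the number of genes in the table in brackets). T cell sums were 41.6 to 64.0 in untreated and 104 to 130 in treated libraries, while dendritic and Langerhans cell sums overlapped.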

How the data were processed

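The 6 skin RNA samples were sequenced after a strand-marking mRNA library preparation, per the labels' protocols. The tools named are STAR, DESeq2 and bcl2fastq 2.20.0.422, with the mm10 build, per the submitters' processing notes. Which program counted reads, whether it used strand and what was filtered is not given in the sources used here. One table was deposited by the authors: it holds scaled signal per gene, with transcript length, log2 fold change, p-value and adjusted p-value, per the file headers. Each value was a whole multiple of 1 read (100.0% within 0.1 read), so whole reads were recovered.

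Genes passing the edgeR 4.0.16 filterByExpr function (minimum count 10, total 15) entered a limma 3.58.1 fit (R 4.3.3) on log2(value + 1), which understates the change of low genes, with a trend in the spread and Benjamini-Hochberg adjustment. The test was tested on simulated data. The changed genes there were drawn from well-covered ones, so it does not cover genes as low as Il17f and Il23r. Ratios of reads carry exact Clopper-Pearson intervals. Figures used matplotlib 3.10.9.

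The members, lists and naming rule (the 4 smallest p of a list, and all called members where 6 or fewer were called) were chosen with earlier results of these data known; other genes of the lists are named for their role, with values known. The alternatives were other pseudocounts, filters, TMM scaling, edgeR, DESeq2 1.42.0, the replicate block, left-out libraries and the authors' comparison. The edgeR fit without a filter was added after seeing the data. Listed symbols absent from the table were matched through RefSeq synonyms (3 genes). One gene of the type 17 list is counted but not reported here.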

Additional observations from a re-analysis of the deposited data

How the results depend on the processing

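The counts of genes called were 1439 higher and 1123 lower over the 6 libraries, of which 2 higher and 0 lower were members of the axis. Without a trend in the spread they were 922 and 640, and at adjusted p under 0.01 they were 362 and 288, with 1 member higher in each case. The member count was 3 where Il17a was tested without the filter, and 1 with DESeq2 and in the 4 libraries of like depth, where Il17f stayed called and Il23r did not. Leaving out 1 library at a time gave 597 to 1389 higher, 518 to 1333 lower and 1 to 2 members higher, and the cause was not tested beyond the smaller number of samples. The log2 fold change of Il17re turned from -0.06 to 0.02 without untreated replicate 1, 0.03 without untreated replicate 3 and 0.01 without treated replicate 2, with a range of -0.22 to 0.03 over single libraries left out.

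With the replicate block, the counts were 1348 higher, 1096 lower and 2 members higher, so no call of a member changed. Samples with the same number did not deviate together (r = -0.085, -0.055 and 0.054 for numbers 1 to 3). With 3 libraries a group this cannot settle whether the numbers pair the samples, and the labels do not say. Depth limits the 4 untested members, Il17a, Il17c, Il23a and Il12b, which had 2 to 19 reads in the untreated group.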
